A study of Mus musculus with 36 samples.

Results

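The 39 genes described here encode the machinery that copies chromosomal DNA, and they were followed through 24 bulk RNA-seq libraries of mouse B cell progenitors. They were chosen by gene symbol, from their known roles in replication, and all 39 were found as rows of each of the 3 deposited tables, which list 46078, 35896 and 18721 genes. By role, 10 license replication origins (Orc1, Orc6, Cdc6, Cdt1 and Mcm2 to Mcm7), 6 activate the helicase (Mcm10, Cdc45 and Gins1 to Gins4), 3 drive entry into S phase (Ccne1, Ccne2 and E2f1), 7 encode polymerases and primase (Pola1, Pola2, Prim1, Prim2, Pold1, Pole and Pole2), 9 encode the sliding clamp, its loader, the single-strand binding protein RPA and the enzymes that finish Okazaki fragments (Pcna, Rfc2 to Rfc5, Rpa1, Rpa2, Fen1 and Lig1), and 4 supply nucleotides (Rrm1, Rrm2, Tyms and Tk1). All 39 passed the filter on low values (a normalized count of 10 or more in 2 or more libraries) in each table.

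The study asked how the deacetylase SIRT7 and its substrate Pax5, the transcription factor that commits progenitors to the B lineage, act in early B cell development. In the table of sorted cells, IgM- pro-B cells (CD43+) and IgM- pre-B cells (CD43-) had been sorted by surface markers from the bone marrow of wild-type and Sirt7-/- mice on the 129Sv background, 2 mice per genotype. The Sirt7-/- allele is a germline deletion of exons 4 to 10, present in every cell of the animal, and the mice of the study were 8 to 16 weeks old and of both sexes. In the Pax5-/- table, pro-B cells of Pax5-/- mice (C57BL/6, from progenitors of fetal liver) carried a retrovirus with empty vector (EV), wild-type Pax5 (Pax5 WT), Pax5 K198Q, in which glutamine imitates acetylated lysine, or Pax5 K198R, in which arginine imitates the deacetylated residue. In the table of cultured cells, wild-type pro-B cells that carried EV were set beside Sirt7-/- ones, given EV, Pax5 WT or K198R. The cells of both these tables had been expanded on OP9 stromal feeder cells with IL-7, SCF and FLT3-L, so that growth factors and feeder cells are shared by all of their groups. By the study's methods, transduced pro-B cells were selected by sorting for hCD4, a marker on the vector. Each of the 12 groups had 2 libraries. The 8 sorted libraries held between 50004827 and 55536608 reads, and those of the other tables summed to between 27814214 and 30520853 normalized counts, with the read depth behind them unknown.

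Replication is prepared in G1, when the origin recognition complex, CDC6 and CDT1 load a ring of MCM2 to MCM7 onto DNA. In S phase CDC45 and the GINS complex turn that ring into the active helicase, and primase with polymerase alpha, then polymerases delta and epsilon, copy the strands around the PCNA clamp. Many of these genes are transcribed shortly before S phase by E2F factors, so that their transcripts mark cells that cycle. Pro-B cells and the large pre-B cells that follow them are known to divide in response to IL-7 and pre-B cell receptor signals, whereas small pre-B cells rest while they rearrange their light chain genes.

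The promoter windows of 31 of the 39 genes were in the RefSeq table used (build GRCm38.p6, 250 bases before to 50 after a start site). Any of 4 octamers that match the E2F consensus (TTTCCCGC, TTTCGCGC, TTTGGCGC or TTTGCCGC, either strand, overlapping matches allowed) was found in the windows of 13 of these 31 genes (41.9%), against 2.60% of the 27025 genes and 2.26% of the 32851 windows in the table. Of the 9 licensing genes in the table, 7 held one (77.8%), namely Orc1, Cdc6, Cdt1, Mcm3, Mcm5, Mcm6 and Mcm7. The others were Gins3, Pola1, Pold1, Pole2, Rfc3 and Lig1. The motif CCAAT, searched in the same way, was in a window of 58.1% of the 31 genes and of 41.1% of all genes in the table. The stretches around the octamers of 4 genes whose values recur below are shown 5′ to 3′ on the strand of the gene, with the bases of the octamers in capitals; overlapping octamers form 1 longer run. They are Cdc6 on chr11:98907987-98908046 (plus strand, 164 to 105 bases before the start site), Mcm5 on chr8:75109332-75109391 (plus strand, 177 to 118 bases before it), Mcm6 on chr1:128359782-128359841 (minus strand, 136 to 77 bases before it) and Pola1 on chrX:93632260-93632319 (minus strand, 164 to 105 bases before it), and none overlaps an exon of GENCODE M21.
Cdc6: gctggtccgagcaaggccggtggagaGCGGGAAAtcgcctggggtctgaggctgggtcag
Mcm5: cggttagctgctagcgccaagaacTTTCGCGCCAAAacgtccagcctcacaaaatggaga
Mcm6: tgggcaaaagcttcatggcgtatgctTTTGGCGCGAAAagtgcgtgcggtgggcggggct
Pola1: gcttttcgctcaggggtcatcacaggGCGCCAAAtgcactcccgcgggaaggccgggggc
In the Mcm5 and Mcm6 stretches octamers on opposite strands share bases. A match to these letters is a description of the sequence, not a measured binding site.

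The libraries were first checked against their labels. In pro-B cells Sirt7 had 2692 and 2533 normalized counts in the wild-type and 363 and 366 in the Sirt7-/- libraries (limma log2 fold change -2.84, SE 0.143, adjusted p = 0.00292). In pre-B cells it had 5613 and 5219 counts in wild-type and 1066 and 821 in Sirt7-/- mice. For 4 of the 8 sorted libraries the field for the cell type disagreed with the title, and the titles were used. Dntt, the terminal transferase of pro-B cells, had between 19432 and 30750 counts in the libraries titled pro-B and between 131 and 3838 in those titled pre-B. Il2ra, a surface marker of pre-B cells, had between 1593 and 3760 in the former and between 16329 and 26038 in the latter, so that both markers side with the titles in all 8 libraries. Igkc, the light chain gene that pre-B cells rearrange, did not separate them, with between 234972 and 550267 counts in pro-B and between 215431 and 269168 in pre-B libraries. The second Sirt7-/- pre-B library stood apart. It held 3838 counts of Dntt where the other pre-B libraries held 131, 157 and 423, and 22303 counts of the erythroid gene Hba-a1 where they held 2365, 2734 and 3230. The pro-B library of the same mouse also had a high Hba-a1 count, 19328. For Sirt7-/- pre-B cells the main median log2 fold changes and numbers of positive changes are therefore given with and without this library. Without it the group has no replicate. Counts of genes that were called, fell below a p threshold or did not overlap between groups are mostly given only with it.

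In wild-type mice 38 of the 39 replication genes fell from pro-B to pre-B cells (limma adjusted p under 0.05 over 17649 genes), where 22.0% of all tested genes fell. The log2 fold change was negative for all 39, with a median of -1.47 (from -2.31 for Tyms to -0.49 for Gins4), and the median over all tested genes was -0.04. The exception was Fen1, the flap endonuclease of Okazaki fragments, at -0.89 (SE 0.320, limma adjusted p = 0.0650), which was called with the mouse as a block. With a further threshold of -1.5 on the log2 scale, 18 members fell, against 9.55% of all genes. In bulk RNA, fewer cycling cells and less of these transcripts per cell cannot be told apart. The 39 genes together held 0.714% and 0.693% of all normalized counts in the wild-type pro-B libraries and 0.219% and 0.244% in the pre-B libraries. Scaling each library to the same total instead moved the median over all genes to -0.12 in wild-type mice and to -0.14 in Sirt7-/- mice, beside medians of -1.56 and -1.18 over the 39 genes on that scale.

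**Figure D1:**
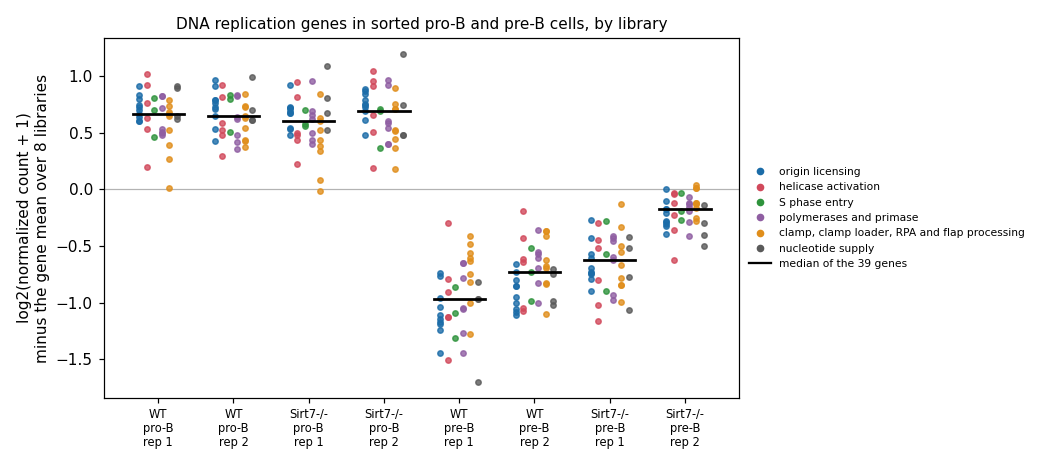
Each point is 1 of the 39 DNA replication genes in 1 sorted library, drawn as log2(normalized count + 1) minus the gene's mean over the 8 libraries, with colours for the roles and black bars for the median of the 39 genes. The 4 pro-B libraries sit between medians of 0.60 and 0.70, and the pre-B libraries at -0.97 and -0.73 in wild-type and at -0.62 and -0.17 in Sirt7-/- mice.

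Origin licensing genes had the lowest median among the 6 roles, -1.78 on the log2 scale, and all 10 fell in wild-type mice. Mcm5, a subunit of the MCM ring, had 23047 and 23709 normalized counts in pro-B then 6009 and 6569 in pre-B cells (log2 scale -1.90, SE 0.163, adjusted p from limma 0.000329). Its 4 Sirt7-/- values were 22718 and 24601 in pro-B and 8467 and 12175 in pre-B cells. The pro-B values of both genotypes thus lie together, and both Sirt7-/- pre-B values lie above both wild-type ones. Cdc6, which brings the ring to the origin, had 5311 and 5558 counts in wild-type pro-B and 1446 and 1483 in wild-type pre-B cells (-1.89, SE 0.176). In Sirt7-/- mice it had 4643 and 5855 counts in pro-B and 2158 and 2992 in pre-B cells, again above the wild-type pre-B range. Cdt1, the second loading factor, had 8213 and 7816 counts in wild-type pro-B and 3242 and 2984 in pre-B cells (-1.36, SE 0.0845), and 7906 and 7535 and then 4473 and 4417 in Sirt7-/- mice. Its Sirt7-/- pre-B values are nearly equal and well apart from the wild-type ones. Mcm6, another ring subunit, fell by 2.06 on the log2 scale in wild-type mice, from 18333 and 20095 to 4338 and 4851 counts.

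All 6 genes of helicase activation fell in wild-type mice, with a median of -1.44, and they spread more widely than the licensing genes. Mcm10, which helps to activate the loaded ring, fell by 2.16 (SE 0.190), from 4856 and 4494 to 897 and 1215 normalized counts. Gins4, a GINS subunit, fell by 0.49 (SE 0.110), from 2048 and 2203 to 1460 and 1567 counts, the smallest change among the 39 genes. Cdc45 had 4935 and 4582 counts in wild-type pro-B and 1450 and 2029 in pre-B cells (-1.47, SE 0.206). In Sirt7-/- mice Cdc45 had 4499 and 5014 counts in pro-B and 2218 and 3092 in pre-B cells, without overlap between the genotypes in pre-B cells.

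The genes of S phase entry fell by a median of 1.43 on the log2 scale. Ccne1, which encodes cyclin E1, had 3108 and 3156 normalized counts in wild-type pro-B and 709 and 891 in pre-B cells (-1.98, SE 0.163), with 2886 and 2903 and then 1192 and 1551 in Sirt7-/- mice. Ccne2, the gene of cyclin E2, had 2472 and 3119 and then 843 and 1256 counts in wild-type mice (-1.43, SE 0.309), and 2677 and 2906 and then 965 and 1760 in Sirt7-/- mice. For Ccne2 the pre-B values of the genotypes overlap, and for Ccne1 they do not. E2f1, itself a factor that activates these genes, had 6818 and 5951 and then 2309 and 2525 counts in wild-type mice (-1.40, SE 0.112), and 6180 and 5398 and then 3444 and 3476 in Sirt7-/- mice.

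The polymerase and primase genes had a median of -1.26, the least negative of the 6 roles, and all 7 fell in wild-type mice. Pola1, the catalytic subunit of polymerase alpha, had 4052 and 4384 counts in wild-type pro-B and 1015 and 1514 in pre-B cells (-1.76, SE 0.257). Its Sirt7-/- values of 3975 and 4646 in pro-B and 1287 and 2012 in pre-B cells overlap the wild-type ones at both stages. Of the 9 genes of the clamp, its loader, RPA and fragment processing, 8 fell in wild-type mice, with a median of -1.33. Pcna had 20379 and 20626 counts in wild-type pro-B and 7027 and 9160 in pre-B cells (-1.35, SE 0.192), and 21450 and 23807 and then 8917 and 12893 in Sirt7-/- mice. Reads could have been split between Pcna and its processed pseudogene Pcna-ps2, which makes its level uncertain, but Pcna and Pcna-ps2 summed to 22474 and 24105 counts in wild-type pro-B and to 7771 and 10670 in pre-B cells, a fall of similar size. Rfc2, a clamp loader subunit, had the second smallest change in wild-type mice, -0.60 (SE 0.136), from 5970 and 7675 to 4472 and 4458 counts.

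All 4 nucleotide supply genes fell in wild-type mice, with a median of -1.58. Tyms, which makes thymidylate, had the largest change among the 39, from 3719 and 3966 normalized counts in pro-B to 611 and 977 in pre-B cells (-2.31 with an SE of 0.272, limma adjusted p = 0.000900). In Sirt7-/- mice Tyms had 4257 and 4565 and then 953 and 1509 counts, so that its pre-B values overlap those of wild-type mice. Tk1, the salvage kinase for thymidine, had 8969 and 7262 and then 2702 and 2404 counts in wild-type mice (-1.66, SE 0.148), and 8317 and 6637 and then 3326 and 3372 in Sirt7-/- mice. Rrm2, the regulated subunit of ribonucleotide reductase, had 27887 and 27187 and then 9115 and 10596 counts in wild-type mice (-1.49, SE 0.116), and 25652 and 24895 and then 13333 and 16221 in Sirt7-/- mice. Both Sirt7-/- pre-B values of Tk1 and Rrm2 lie above both wild-type ones.

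In Sirt7-/- mice 36 of the 39 genes fell from pro-B to pre-B cells, where 19.2% of all tested genes did, and the 3 that did not pass were Rpa1, Fen1 and Rfc2. All 39 log2 fold changes were again negative. Their median was -1.08 (from -1.88 for Tyms to -0.31 for Rfc2), and 5 members passed the threshold of -1.5 as well, against 6.03% of all genes. The largest falls after Tyms were those of Gins2, by 1.59 (SE 0.263), and Mcm10, by 1.57 (SE 0.190). Without the second Sirt7-/- pre-B library the median was -1.28, and without the first it was -0.81.

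**Figure D2:**
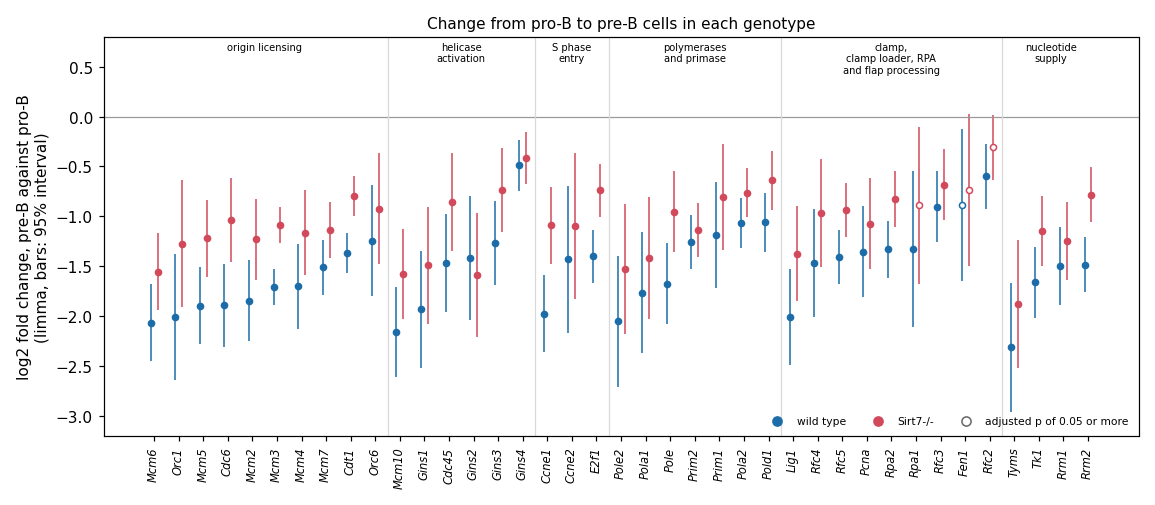
Each point is the log2 fold change of 1 gene between pre-B and pro-B cells in wild-type (blue) or Sirt7-/- mice (red), with its 95% interval from limma and genes grouped by role; open symbols mark an adjusted p of 0.05 or more. All changes lie below 0, and the Sirt7-/- change is the smaller for every gene but Gins2.

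In pre-B cells, 38 of the 39 genes had a higher mean in Sirt7-/- than in wild-type mice, and the tools differed in how many they called. The median log2 fold change was 0.47 (from -0.29 for Gins2 to 0.79 for Cdc6), beside 0.02 over all tested genes. In limma 0 members and 0.0850% of all genes had an adjusted p under 0.05, and 23 members, against 13.6% of all genes, had an unadjusted p under 0.05. That count of 23 was smaller without the second Sirt7-/- pre-B library. In edgeR on the recovered reads 0 members passed, and in DESeq2 12 did, all higher (Cdc6, Cdt1, Mcm2, Mcm3, Mcm5, Mcm7, Mcm10, Ccne1, E2f1, Rpa2, Lig1 and Rrm2), against 4.62% of all genes. The 3 members with the smallest p in limma were Mcm3 (log2 fold change 0.65, 95% interval 0.47 to 0.83, adjusted p = 0.0580), Cdt1 (0.51, 95% interval 0.31 to 0.71, adjusted p = 0.112) and Rrm2 (0.58, 95% interval 0.31 to 0.86, adjusted p = 0.147). Mcm3 had 5332 and 5467 counts in wild-type and 8154 and 8768 in Sirt7-/- pre-B cells, and its pro-B values were 17424 and 17932 against 17489 and 18371. For 25 members both Sirt7-/- pre-B libraries were above both wild-type ones, for 0 both were below, and for the other 14 they overlapped. Of all tested genes 22.1% had both Sirt7-/- libraries above and 19.3% had both below. The size of the difference differed between the mice: the median was 0.26 without the second Sirt7-/- pre-B library, with 31 of 39 log2 fold changes positive, and 0.70 without the first.

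In pro-B cells the genotypes lay close together. In limma 0 members were called, where 0.0623% of all genes were, and 0 members had an unadjusted p under 0.05, where 5.94% of all genes had. DESeq2 and edgeR also called 0 members. The median log2 fold change was -0.00, 17 of 39 were positive, and all lay between -0.31 (Rpa1) and 0.20 (Tyms). The 3 with the smallest p were E2f1 (-0.14, 95% interval -0.41 to 0.12), Rfc4 (-0.25, 95% interval -0.79 to 0.29) and Rfc5 (-0.13, 95% interval -0.40 to 0.15). Rfc4, of the clamp loader, had 1682 and 1670 counts in wild-type and 1364 and 1453 in Sirt7-/- pro-B cells, and Rfc5 had 4324 and 4205 against 3924 and 3886. Both Sirt7-/- libraries were above both wild-type ones for 6 members, and below for 7, where 19.5% of all genes had them above and 19.8% below.

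Whether the change between stages differed with genotype was tested by the interaction. It called 0 members in limma, where 0.00567% of all genes were called, and 0 in edgeR, while 13 members had an unadjusted p under 0.05, as had 5.43% of all genes. DESeq2 called 2, Cdt1 and Mcm3, against 0.634% of all genes. The interaction was positive for 38 of 39 genes, which is a smaller fall in Sirt7-/- mice, with a median of 0.50. Without the second Sirt7-/- pre-B library it was positive for 33 of 39 genes, with a median of 0.25, and fewer members had an unadjusted p under 0.05 in limma. The members with the smallest p were Mcm3 (0.63, 95% interval 0.37 to 0.88, limma adjusted p = 0.381), Cdt1 (0.57, 95% interval 0.29 to 0.85, adjusted p = 0.647) and Rrm2 (0.71, 95% interval 0.31 to 1.10, adjusted p = 0.660). This comparison contains the pre-B comparison above and shares its libraries, so the 2 are not independent.

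Since each mouse gave both libraries, the pre-B value can be read as a percent of the pro-B value in the same mouse. The median over the 39 genes was 33.0% and 37.7% in the wild-type mice and 41.9% and 54.2% in the Sirt7-/- mice. Over all 15101 genes with enough counts it was 96.7% and 96.0%, then 96.7% and 95.7%. For 25 of the 39 genes (64.1%) both Sirt7-/- mice kept a larger share than both wild-type mice, as did 22.5% of all genes. Cdt1 kept 39.5% and 38.2% in wild-type and 56.6% and 58.6% in Sirt7-/- mice. Mcm3 kept 30.6% and 30.5%, then 46.6% and 47.7%. For these genes both Sirt7-/- mice are alike, whereas for Mcm5 (26.1% and 27.7%, then 37.3% and 49.5%) the second is clearly the higher. Gins2 (28.4% and 49.4%, then 33.0% and 33.4%) shows no such order.

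Other transcripts of the same libraries moved with this difference. The 18 mitosis genes of a list kept a median of 26.1% and 36.0% in wild-type and 39.5% and 52.0% in Sirt7-/- mice. The 8 pro-B markers kept a median of 2.29% and 1.93% in wild-type mice and 4.28% and 16.7% in Sirt7-/- mice, and they summed to 6798 and 7979 normalized counts in the wild-type and 9677 and 21335 in the Sirt7-/- pre-B libraries. The most abundant in the pre-B libraries was Spn, with 5442 and 6278 counts in wild-type and 6123 and 7600 in Sirt7-/- mice, and over all 8 libraries it was Dntt, at 131 and 157 counts in wild-type and 423 and 3838 in Sirt7-/- pre-B cells, and none of the 8 was at 0. With the second Sirt7-/- pre-B library included, all 8 had a positive interaction, and none was called. In the first Sirt7-/- mouse Kit kept 1.03%, below the 2.46% and 4.56% of the wild-type mice. Spn kept 28% there, also below their 32.2% and 32.2%, and Flt3 kept 7.48%, between their 9.61% and 1.86%. Dntt, Igll1, Vpreb1, Vpreb2 and Erg kept more in that mouse than in both wild-type mice. Of the 6 pre-B markers 4 had a negative log2 fold change between the genotypes in pre-B cells, and none was called. Il2ra had 25620 and 26038 counts in wild-type and 17564 and 16329 in Sirt7-/- pre-B libraries, Ikzf3 had 43033 and 45594 against 39544 and 38940, and Bach2 had 52444 and 51591 against 37898 and 38694, so that the groups did not overlap for these 3. The 6 summed to 492095 and 430464 counts in wild-type and 534565 and 446945 in Sirt7-/- pre-B cells, with Igkc the most abundant and none at 0. In the pre-B libraries the 6 erythroid markers, led by Hba-a1, summed to 3290 and 3618 counts in wild-type and to 4427 and 30963 in Sirt7-/- mice. The 6 NK cell markers summed to between 157 and 365 counts in the first 3 of these libraries and to 756 in the second Sirt7-/- one, and Ncr1, which defines NK cells, was at 0 in those 3 and at 121 counts in that one. The T cell markers kept a median of 1.24% and 0.706% in wild-type mice and of 10.7% and 47.1% in Sirt7-/- mice, over the 8 of 9 with enough counts. Thy1 had 22 and 14.2 counts in wild-type and 43.7 and 323 in Sirt7-/- pre-B libraries, and Trbc1, of the T cell receptor, was at 0 in both wild-type and at 7.46 and 50.6 in the Sirt7-/- ones. Cd3d went the other way, being above 0 in both wild-type libraries, with 2.19 counts in the second, and at 0 in both Sirt7-/- ones, and Cd3e and Cd3g were at 0 in all 4. In this comparison 6 of the 9 T cell genes had a positive log2 fold change, and none was called. The part of pro-B, pre-B, T, NK or erythroid cells in the difference of the replication genes was not tested. In the first Sirt7-/- mouse 25 of the 39 replication genes kept more than in both wild-type mice, as did 37.1% of all genes. In that mouse the erythroid markers kept a median of 70.6%, against 29.2% and 41.9% in wild-type mice, and the NK cell markers 4.44%, against 31.6% and 21.0%.

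**Figure D3:**
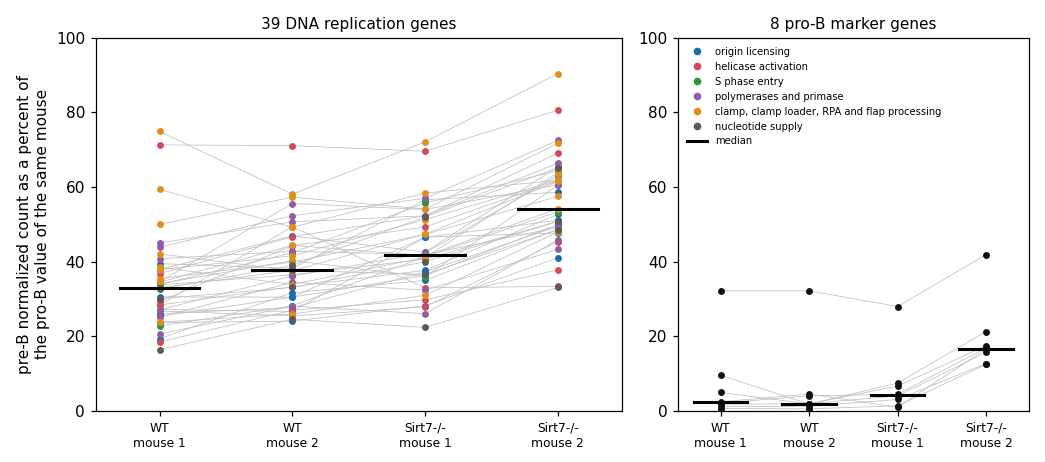
The pre-B normalized count is drawn as a percent of the pro-B count of the same mouse, for the 39 DNA replication genes on the left and 8 pro-B marker genes on the right, with grey lines that join a gene's values and black bars for medians. On the left the medians are 33.0%, 37.7%, 41.9% and 54.2%, and on the right 2.29%, 1.93%, 4.28% and 16.7%, with the second Sirt7-/- mouse the highest in both.

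Mouse to mouse spread was large for a few members. Rpa1, the large subunit of RPA, had 8054 counts in the pro-B and 3818 in the pre-B library of the first Sirt7-/- mouse, against 12515 and 7699 in the second and 12265, 12675, 5165 and 4766 in wild-type mice. Fen1 had 2267 and 1324 in the first Sirt7-/- mouse against 3735 and 2307 in the second. Both genes were thus low at both stages of the same animal, which widens their intervals. Gins2 had 10943 and 8095 counts in wild-type and 7284 and 10435 in Sirt7-/- pro-B cells, a spread between mice wider than the difference between the genotypes' means.

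The rest of the pathway was read from a list of 40 other replication genes, of which 39 could be tested in sorted cells. In wild-type mice 31 fell from pro-B to pre-B cells and 2 rose, and in Sirt7-/- mice 29 fell and 2 rose. Of all 17649 genes tested, 22.0% fell and 3200 rose in wild-type mice and 19.2% fell and 2913 rose in Sirt7-/- mice. Among the largest falls in wild-type mice were Dna2, a nuclease and helicase of fragment processing, which fell by 2.09 (SE 0.281), and Dtl, which directs the destruction of CDT1 in S phase and fell by 2.08 (SE 0.253). The 2 that rose were the same in both genotypes. Samhd1, which degrades deoxynucleotides, rose by 2.79 (SE 0.123, limma adjusted p = 9.41e-05), from 6113 ± 494 (SD, n = 2) to 42292 ± 421 counts in wild-type mice, and by 3.06 in Sirt7-/- mice. Rrm2b, the p53-induced subunit of ribonucleotide reductase, rose by 1.53 in wild-type and 1.40 in Sirt7-/- mice, while Rrm2 fell. Among 21 regulators of G1, 15 fell and 3 rose in wild-type mice. Myc fell by 3.65 (SE 0.346), Cdk6 fell by 2.68 (SE 0.252) and Ccnd2, the gene of cyclin D2, fell by 2.63 (SE 0.184), and the genes that rose were Cdkn1b (by 1.43), which encodes the CDK inhibitor p27, and Rb1 and Rbl2 (by 0.49 and 0.47), which encode repressors of E2F targets. In Sirt7-/- mice 12 fell and 4 rose, with Cdkn1b at 0.95. Rrm2b, Cdkn1b, Rb1 and Rbl2 are named after their values were seen. All 18 mitosis genes fell in both genotypes, such as Ccnb1, the gene of cyclin B1, with -2.27 in wild-type and -1.56 in Sirt7-/- mice. Between the genotypes limma called none of these genes in pre-B cells, where 15 other replication genes, 8 G1 regulators and 8 mitosis genes had an unadjusted p under 0.05, as did 13.6% of all genes. The log2 fold change was positive for 32 of 39, 17 of 21 and 18 of 18 of them, with medians of 0.32, 0.34 and 0.50. Without the second Sirt7-/- pre-B library these medians were 0.15, 0.17 and 0.22, with 28, 14 and 17 positive. Fewer genes of each list then had an unadjusted p under 0.05 in limma. Between stages in Sirt7-/- mice the medians of the lists were -0.87, -0.83 and -1.10 with this library and -1.083, -1.115 and -1.436 without it. An E2F octamer was in the promoter window of 10 of 35 other replication genes (28.6%), 8 of 16 G1 regulators (50.0%) and 1 of 15 mitosis genes (6.67%). Among members, the 13 with an octamer had a median change of -1.76 in wild-type mice and the 18 without of -1.44, with ranges that overlap.

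In Pax5-/- pro-B cells the question was whether the forms of Pax5 change these genes. Pax5 itself had 2201 and 2103 normalized counts with EV, 6458 and 6152 with Pax5 WT, 8918 and 8963 with K198Q and 21162 and 16609 with K198R. The forms thus differed in RNA level as well as in sequence, and the effects of level and residue cannot be told apart. The order of protein levels may differ from that of RNA. In HEK293F cells the paper found less K198Q protein and more K198R protein than wild-type Pax5. Pax5 WT against EV called 0 members, where 3.25% of all 13345 tested genes were called, with 37 of 39 log2 fold changes positive and a median of 0.17. K198Q against EV called 0, where 0.922% were, with 29 positive and a median of 0.06. K198R against EV called 1, where 9.92% were, with 36 positive and a median of 0.32. At an unadjusted p under 0.05 in limma there were 1, 0 and 5 members, or 2.56%, 0% and 12.8%, where 14.4%, 7.86% and 22.9% of all genes passed. These 3 comparisons share the EV libraries, and leaving out an EV library moved each median, from -0.05 to 0.38 for Pax5 WT, from -0.16 to 0.27 for K198Q and from 0.094 to 0.52 for K198R, the lower value without the first and the higher without the second.

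The called gene was Pold1, the catalytic subunit of polymerase delta. It had 4091 and 4882 counts with EV, 5745 and 6295 with Pax5 WT, 5043 and 5737 with K198Q and 5895 and 6875 with K198R. Both libraries of each form lie above both EV libraries. The log2 fold change was 0.51 with K198R (SE 0.127, limma adjusted p = 0.0448), 0.43 with Pax5 WT (adjusted p = 0.144) and 0.27 with K198Q (adjusted p = 0.721). The K198R call lies near the threshold and was lost under several other settings, such as when only the EV and K198R groups were fitted. Pole, the catalytic subunit of polymerase epsilon, had 3692 and 4500 counts with EV, 4515 and 5320 with Pax5 WT, 4131 and 4721 with K198Q and 4883 and 6201 with K198R (K198R against EV 0.43, limma adjusted p = 0.143). For K198R against EV both libraries were above both EV ones for 9 members, where 23.5% of all genes had this, and below for 1, Ccne2, where 23.2% of all genes were below. For Pax5 WT against EV they were above for 4 members, Gins3, Ccne2, Pold1 and Pole, where 21.3% of all genes were.

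The libraries with replicate number 2 had higher values of these genes. For 35 of the 39 members the second library was above the first in all 4 groups, where this held for 20.7% of all genes. The median deviation of the 39 genes from their means was -0.35 and 0.07 with EV, -0.08 and 0.14 with Pax5 WT, -0.24 and 0.11 with K198Q, and -0.03 and 0.36 with K198R. The libraries of a group thus lay as far apart as many of the groups. By the study's methods replicates were made on different days, without a statement that libraries of 1 number share a day. The 6 stromal feeder markers, led by Cxcl12, moved with the number, summing to 910 and 1096 counts with EV, 869 and 2367 with Pax5 WT, 1105 and 1678 with K198Q, and 1039 and 1232 with K198R. At most 1 of the 6 was at 0 in a library, and the part of feeder cells in the step was not tested. Mcm5 had 6959 and 9473 counts with EV, 8385 and 9712 with Pax5 WT, 7282 and 9800 with K198Q and 8806 and 11288 with K198R. Cdc6 had 1460 and 2286, 1854 and 2325, 1586 and 2229, and 2002 and 2823 in the same order of groups. Cdt1 had 2751 and 3392, 2752 and 3490, 2676 and 3489, and 2771 and 3905. In each of these licensing genes the groups overlap and the second library is the higher. E2f1 had 1218 and 1483, 1355 and 1500, 1346 and 1483, and 1564 and 1655, with K198R above the other groups. Ccne1 had 502 and 927, 533 and 641, 518 and 725, and 506 and 760. Ccne2 had 730 and 730, 831 and 787, 777 and 711, and 689 and 587, so that it was the one S phase entry gene with its lowest values under K198R and without the step between libraries. Cdc45 had 1520 and 1915, 1487 and 1856, 1482 and 1888, and 1581 and 2339. Pola1 had 1625 and 2734, 2093 and 3000, 1802 and 2898, and 2122 and 3661. Pcna had 9315 and 12205, 10616 and 12414, 10199 and 12061, and 12247 and 15538. In all 3 the highest value was the second K198R library. Rrm2 had 2568 and 3944, 2842 and 3930, 2381 and 3774, and 3096 and 6120. Tyms had 1345 and 1868, 1777 and 2030, 1280 and 1847, and 1771 and 2862. Tk1 had 1096 and 1921, 1573 and 1924, 1336 and 1967, and 1440 and 2341, the same picture for nucleotide supply.

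A fit with the replicate number as a block, which takes this step out, called more members. For K198R against EV it called 21 of the 39, all higher, where 9.42% of all genes were called higher. Of the licensing genes these were Orc1, Cdc6, Mcm2, Mcm3, Mcm4, Mcm5 and Mcm7, of helicase activation Gins1 and Gins2, and of the polymerases and primase Pola1, Prim1, Prim2, Pold1 and Pole. The others were Pcna, Rfc2, Rpa1, Rpa2, Lig1, Rrm2 and Tyms, and none was a gene of S phase entry. Their log2 fold changes lay between 0.23 (Rpa1) and 0.53 (Lig1), the same values as without the block, and those of Mcm3 and Pold1 were 0.45 (SE with the block 0.0774, limma adjusted p = 0.00506) and 0.51 (SE 0.0603, adjusted p = 0.000896). For Pax5 WT against EV the block called 3, Pold1, Pole and Lig1, all higher, where 5.03% of all genes were called higher, and for K198Q against EV 0. These calls hold only if the number marks something that the groups share.

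Between the forms no member was called without the block. K198Q against Pax5 WT called 0.0225% of all genes, and 2 of 39 members were positive, with a median of -0.10. The smallest p belonged to Pold1 (-0.16, 95% interval -0.46 to 0.13), Rfc5 (-0.17, 95% interval -0.51 to 0.17) and Tyms (-0.30, 95% interval -0.93 to 0.32). K198R against Pax5 WT called 2.87% of all genes, and 36 members were positive, with a median of 0.14 and the smallest p for Ccne2 (-0.35, 95% interval -0.64 to -0.05, limma adjusted p = 0.283). K198R against K198Q called 5.01% of all genes, and 38 members were positive, with a median of 0.23 and the smallest p for Tyms (0.55, 95% interval -0.08 to 1.18). At an unadjusted p under 0.05 in limma there were 0, 1 and 0 members, where 3.46%, 12.7% and 16.9% of all genes passed. Leaving out 1 library moved the medians from -0.26 to 0.089, from -0.09 to 0.34 and from 0.042 to 0.43, though leaving out 1 library also leaves the replicate numbers, and with them the step between libraries, unequal in the 2 groups. With the replicate number as a block, K198R against K198Q called 9 members, all higher (Orc1, Cdc6, Mcm2, Mcm3, Pold1, Pole, Pcna, Rrm2 and Tyms), where 4.87% of all genes were called higher. K198R against Pax5 WT then called 1, Pcna, where 2.55% were, and K198Q against Pax5 WT 0. Intervals as wide as these do not show that the forms act alike.

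Of the 40 other replication genes, K198R against EV called 2 higher and 1 lower, and of 21 G1 regulators 1 lower, no larger a share than the 9.92% of all genes. Rrm2b was higher by 0.67 (SE 0.124, limma adjusted p = 0.0137) and Wdhd1, which ties polymerase alpha to the helicase, by 0.57 (SE 0.144). Samhd1 fell by 0.95 (SE 0.214), from 4473 ± 631 (SD, n = 2) to 2373 ± 812 counts. The G1 regulator was Mycn, which fell by 1.41 (SE 0.313, limma adjusted p = 0.0289), and of the mitosis genes 0 were called. Pax5 WT and K198Q against EV called 0 genes of these lists, with 3 and 0 replication genes and 4 and 0 G1 regulators at an unadjusted p under 0.05, where 14.4% and 7.86% of all genes passed.

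In cultured pro-B cells with EV, loss of Sirt7 was again compared. Sirt7 had 1324 and 905 counts in wild-type and 336 and 387 in Sirt7-/- cells, and between 325 and 407 in the Sirt7-/- cells with Pax5 WT or K198R. None of the 39 genes was called, where 0.557% of all 13651 tested genes were, and 2 had an unadjusted p under 0.05 in limma, or 5.13%, against 9.68% of all genes. The median log2 fold change was -0.16, with 2 of 39 positive, and both Sirt7-/- libraries were below both wild-type ones for 11 members, where 17.2% of all genes had this. The smallest p belonged to Pold1 (-0.33, 95% interval -0.59 to -0.08, limma adjusted p = 0.315), Tk1 (-0.42, 95% interval -0.80 to -0.05, adjusted p = 0.427) and Gins4 (-0.26, 95% interval -0.55 to 0.03). Pold1 had 6324 and 6289 counts in wild-type and 4814 and 5209 in Sirt7-/- cells. In the sorted pro-B cells described above the median was -0.00 with 17 of 39 positive, and the 2 experiments were not tested against each other.

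Pax5 WT against EV in Sirt7-/- cells called 0 members, where 0.0366% of all genes were called, with 14 positive and a median of -0.06. K198R against EV called 0, where 4.83% were, with 13 positive and a median of -0.06, and K198R against Pax5 WT called 0, where 0.425% were, with 19 positive and a median of -0.00. In limma 0, 3 and 0 members had an unadjusted p under 0.05, where 9.91%, 18.4% and 8.78% of all genes had. With the replicate number as a block K198R against EV called 1, Ccne1, which was higher, where 5.51% of all genes were. The 3 of K198R against EV were Prim2, of primase (-0.36, 95% interval -0.63 to -0.09), Ccne1 (0.46, 95% interval 0.09 to 0.83) and Tk1 (0.41, 95% interval 0.04 to 0.78), and the smallest p for Pax5 WT against EV belonged to Prim2 (-0.26), Tk1 (0.23) and Gins4 (0.17). These comparisons share the Sirt7-/- EV libraries with the one above. The second library was above the first for 37 of 39 members in each EV group, by a median of 0.28 (wild-type) and 0.26 (Sirt7-/-), for 23 with Pax5 WT and for 4 with K198R. It was above in all 4 groups for 3 members, where 14.3% of all genes had this. The 6 stromal markers summed to between 3114 and 11185 counts, the most abundant being Cxcl12, with the highest sum in the second Pax5 WT library. Whether this RNA came from feeder cells, and its part in these values, was not tested.

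By library, in the order wild-type EV, Sirt7-/- EV, Sirt7-/- Pax5 WT and Sirt7-/- K198R, Mcm5 had 11811 and 14281, 10463 and 12966, 11662 and 12180, and 12224 and 10695 counts. Cdc6 had 2039 and 3025, 1927 and 2742, 2171 and 2324, and 2443 and 2219. Cdt1 had 2546 and 3246, 2356 and 2947, 2330 and 2952, and 3077 and 2905. The groups overlap for all 3 licensing genes. E2f1 had 1637 and 1826, 1578 and 1714, 1516 and 1673, and 1680 and 1613. Ccne1 had 756 and 902, 717 and 916, 873 and 974, and 1078 and 1159. Ccne2 had 1918 and 2339, 1887 and 2073, 1845 and 1788, and 2092 and 1808. Of these, only Ccne1 had both K198R values above all others. Cdc45 had 2668 and 2887, 2226 and 2613, 2311 and 2219, and 2417 and 2096. Pola1 had 3326 and 4644, 3159 and 3920, 3348 and 3424, and 3083 and 3073. Pcna had 16412 and 21026, 14089 and 17015, 15505 and 14796, and 15665 and 14489. For Cdc45 both wild-type values are the highest, and for the other genes the highest value is the second wild-type library. Rrm2 had 8073 and 10911, 7036 and 9751, 8807 and 9351, and 9300 and 9160. Tyms had 3944 and 4234, 3633 and 3635, 3968 and 3886, and 4588 and 3633. Tk1 had 2929 and 3383, 2060 and 2668, 2455 and 3084, and 3197 and 3031, with both Sirt7-/- EV values below both wild-type ones.

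**Figure D4:**
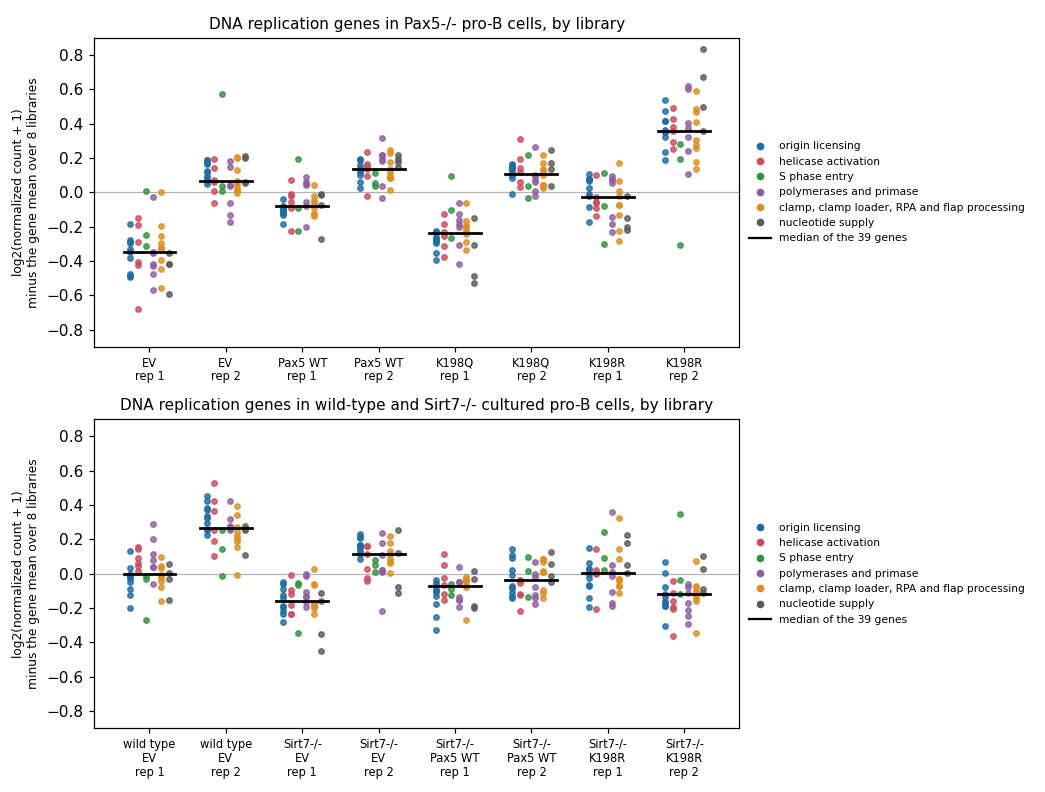
Each point is 1 of the 39 DNA replication genes in 1 library of the Pax5-/- table (top) or of the cultured wild-type and Sirt7-/- table (bottom), drawn as log2(normalized count + 1) minus the gene's mean over the 8 libraries of its table, with black bars for medians. In Pax5-/- cells the second library of each group is the higher, with medians from -0.35 (first EV) to 0.36 (second K198R), and in the cultured cells the medians lie between -0.16 and 0.26.

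In other lists K198R against EV in Sirt7-/- cells called 5 genes, 3 of 21 G1 regulators, 2 of 40 other replication genes and 0 of 18 mitosis genes, where 4.83% of all genes were called. Of the G1 regulators Ccnd1 was higher by 2.49 (SE 0.555) and E2f2 by 0.50 (SE 0.108), and Cdk6 fell by 1.16 (SE 0.179, limma adjusted p = 0.0146). Of the other replication genes Cdc7, the kinase that fires origins, was higher by 0.47 (SE 0.104) and Dck, a kinase of nucleotide salvage, fell by 0.69 (SE 0.136). Sirt7-/- against wild-type cells with EV called 1, Ccnd3, the gene of cyclin D3, which fell by 0.71 (SE 0.109) from 27188 ± 42.5 (SD, n = 2) to 16612 ± 329 counts.

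Binding of Pax5 near these genes was read from the peak lists of ChIP-seq in Pax5-/- cells with each form, called by the authors against the input of each replicate. Genes were counted when a peak overlapped the 1 kb on either side of any of their annotated start sites in both replicates. The start site could differ between the replicates. This held for 11 of the 39 genes with Pax5 WT (28.2%, against 19.6% of 21951 protein-coding genes), for 3 with K198Q (7.69%, against 6.66%) and for 10 with K198R (25.6%, against 23.4%). The members' shares are thus near those of all protein-coding genes, and the lists differ in length, from 3750 peaks (K198Q replicate 1) to 13997 (K198R replicate 2). The genes with Pax5 WT were Ccne1, Cdt1, E2f1, Gins1, Gins2, Gins3, Gins4, Pola1, Pold1, Rfc4 and Rpa1, and those with K198Q were Gins1, Pold1 and Rpa1. Of the 10 licensing genes 1 had such a peak with Pax5 WT (Cdt1), and of the 6 helicase genes 4 did. At Pola1 the Pax5 WT peak of replicate 1 covered chrX:93631955-93632313 (mm10) with a fold enrichment over input of 8.48, and its summit was 2 bases from the start site. Replicate 2 gave 9.51, K198R gave 8.50 and 11.1, and K198Q gave 4.30 in replicate 2 and no peak in replicate 1. This peak covers the octamer in the Pola1 stretch printed above. At Pold1, the one gene called with K198R, the peak at the start of the gene had fold enrichments of 5.70 and 6.29 with Pax5 WT. It had 11.4 and 4.64 with K198R, and 4.17 in 1 replicate with K198Q. The spread between replicates of this peak with K198R is wider than its difference from Pax5 WT. Pold1 was counted with K198Q through peaks at other annotated start sites, inside the gene. The strongest Pax5 WT peak of Pold1 in each replicate also lay inside the gene, near the site at chr7:44535958, with 16 and 8.57. K198Q had 6.65 and 11.4 there, and K198R had a peak there in both replicates. The list used as K198R replicate 2 carries another replicate number inside its peak names.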

How the data were processed

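RNA had been polyA-selected, made into stranded libraries and sequenced by the authors, and transcripts were quantified with Salmon on mm10 with GC bias correction and summed to genes with Tximeta; tool versions are not given in the sources used here. The deposited signal values are normalized counts, which the authors made by dividing counts by DESeq2 size factors, separately for each of the 3 tables. In the table of sorted cells they were whole multiples of 1 step per library (100% of values within 0.01 of a read), so that reads could be recovered, 50004827 to 55536608 per library. The other tables had no such step. For ChIP-seq the authors aligned with Bowtie2 and called peaks with MACS2 for each replicate against input; the deposited peak lists give the fold enrichment ratio over input and the −log10 q value.

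Values were analysed as log2(normalized count + 1) with limma 3.58.1 (R 4.3.3; lmFit and eBayes with a variance trend), fitting the 4 groups of a table together, over genes that reached a normalized count of 10 in 2 or more libraries (17649 sorted, 13345 Pax5-/- and 13651 cultured). Log2 fold changes are on this scale, p-values were adjusted by the Benjamini-Hochberg method over all genes tested, and an adjusted p under 0.05 was called. Of the 15 comparisons 14 set 2 libraries against 2, for which an exact permutation test cannot give a p below 0.33, and the stage by genotype interaction used all 8 sorted libraries. The labels do not say that all libraries of a group are separate cultures or animals, and p-values measure the spread between these libraries. Alternatives were edgeR 4.0.16 (quasi-likelihood) and DESeq2 1.42.0 on the recovered reads, other filters, pseudocounts and scalings, fits with blocks, and each library left out in turn; the counts for lists of other genes without the second Sirt7-/- pre-B library were added after the data were seen. The test was checked on simulated data.

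In sorted cells, pro-B and pre-B libraries with 1 number and genotype came from 1 mouse. Their deviations from the group means correlated at 0.0798 in wild-type and 0.156 in Sirt7-/- mice over 17649 genes. Same-numbered libraries of different genotypes, and so of different mice, correlated at 0.0101 to 0.0554. A fit with the mouse as replicate block called 39 members in wild-type and 38 in Sirt7-/- mice, where the fit without it called 38 and 36. The share of all genes called with this block is not given, so the gain cannot be read as particular to these genes. The 39 genes, the lists of other genes and the cell type markers were chosen with earlier results of these data known. Any member could be named; values in every library are given for Mcm5, Cdc6, Cdt1, E2f1, Ccne1, Ccne2, Cdc45, Pola1, Pcna, Rrm2, Tyms and Tk1 and for up to 3 called members, or the 3 with the smallest p, per comparison, and up to 3 called genes with the largest change are named from each other list. Promoter windows came from RefSeq (GRCm38.p6), start sites and exons from GENCODE M21.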

Additional observations from a re-analysis of the deposited data

How the results depend on the processing

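All 39 changes between stages were negative under each alternative run, and 31 were called in Sirt7-/- mice with only the groups compared. Leaving out 1 library lowered the number called in wild-type mice and moved it either way in Sirt7-/- mice. Asking also for a change of 1.5 or more on the log2 scale left 18 called in wild-type, 5 in Sirt7-/- mice and 0 for K198R against EV. DESeq2 called 12 members for Sirt7-/- against wild-type pre-B cells and 2 for the interaction, where limma and edgeR called 0; the cause was not tested. The 1 call of K198R against EV, Pold1, became 0 with no filter on low values, with no variance trend and with only the groups compared. With the replicate number as a replicate block, 21 members were called for K198R against EV, 3 for Pax5 WT against EV, 9 for K198R against K198Q, 1 for K198R against Pax5 WT and 1 for K198R against EV in Sirt7-/- cells. All these were higher, where 9.42%, 5.03%, 4.87%, 2.55% and 5.51% of all genes were called higher, in the same order. The block called 0 members in the other 5 comparisons of these tables. Whether same-numbered libraries share a day is not stated in the sources used here, and they deviated together (correlations of 0.264 to 0.383 and 0.156 to 0.428 over genes). The block by mouse in sorted cells called 39 members in wild-type and 38 in Sirt7-/- mice and 0 for the interaction. No share of all genes is given for that fit. Leaving out 1 library at a time gave 0 to 4 called members for Sirt7-/- against wild-type pre-B cells and 0 to 1 for K198R against EV, with 0 without the second K198R or either EV library. The members' median then ranged from -1.28 to -0.81 for the stage in Sirt7-/- mice, from 0.26 to 0.70 for pre-B cells and from 0.25 to 0.70 for the interaction, with the bounds of each set by leaving out one or the other Sirt7-/- pre-B library. It ranged from -0.05 to 0.38 for Pax5 WT, from -0.16 to 0.27 for K198Q and from 0.094 to 0.52 for K198R against EV. It ranged from -0.32 to -0.022 for Sirt7-/- against wild-type cells with EV. In Sirt7-/- cells it ranged from -0.17 to 0.088 for Pax5 WT and from -0.18 to 0.091 for K198R against EV, with the sign set by which Sirt7-/- EV library was left out. A pseudocount of 8, a minimum of 100 counts, rescaling, quantile normalization, a 5 kb window and a −log10 q of at least 5 for peaks changed no call by more than 1.5 times. With 2 libraries per group these data resolve large changes, and the read depth of the Pax5-/- and cultured tables is unknown.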

Other observations

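Markers of other cells in the sorted libraries were also read. The 9 T cell markers summed to between 5610 and 6100 normalized counts in pro-B and between 3025 and 3624 in pre-B libraries, most of it from Lck, which had between 2961 and 3384 counts in pre-B libraries. The 7 myeloid markers, of which Itgam was the most abundant over all 8 libraries together and S100a9 in the wild-type pro-B libraries, summed to 33542 and 24478 counts in wild-type pro-B, 26836 and 9531 in Sirt7-/- pro-B, 15197 and 14871 in wild-type pre-B and 11498 and 10674 in Sirt7-/- pre-B libraries. The 5 plasma cell markers, of which Irf4 was the most abundant in the pre-B libraries and Jchain in 3 of the 4 pro-B ones, summed to between 47973 and 88204 counts in pro-B and between 37386 and 49938 in pre-B libraries. Their part in the levels of the replication genes was not tested.

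A Pax5 peak within 1 kb of a start site in both replicates was more frequent among the 40 other replication genes than among the 39 members, with 22 of 40 (55.0%) against 11 of 39 (28.2%) for Pax5 WT and 23 of 40 (57.5%) against 10 of 39 (25.6%) for K198R. The difference was not tested. Among 21 G1 regulators 5 had such a peak with Pax5 WT and 10 with K198R, and among 18 mitosis genes 5 and 6 did, where 19.6% and 23.4% of protein-coding genes had one.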
